A study of Drosophila melanogaster with 3 samples.

Results

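The X chromosome of Drosophila melanogaster held 337 regions bound by Aef1-eGFP away from gene starts, of the 2969 regions that recurred between replicates genome-wide. Aef1 was mapped by chromatin immunoprecipitation and sequencing (ChIP-seq) with an anti-GFP antibody in whole embryos of 0 to 24 h from the strain Aef1-GFP, which carries Aef1 fused to enhanced green fluorescent protein. The 3 biological replicates formed 1 group, and neither input chromatin nor untagged embryos were used here. The promoter that drives the fusion and the state of the endogenous Aef1 gene are not given in the labels, and the embryos' sex was not collected, so the dose of X relative to autosomal chromatin is unknown. Every tissue of the embryo contributed to each list.

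Peaks of the 3 replicate lists that overlapped by at least 1 bp were merged, and a region was kept if it lay on X, had peaks from 2 or more replicates and had its summit more than 500 bp from every protein-coding transcript start. Of 850 merged X regions, 610 had peaks in 2 or more replicates, and 273 of these lay within 500 bp of a start and were set aside. The same rule gave 1055 regions on the autosomes, which serve as the comparison. The regions were chosen by their peaks, so peak numbers, ranks and signals are given as descriptions with no test. Sequence and gene annotation were not used by the rule beyond the distance to a start, and only these were tested. Just inside the limit, regions lay 502 bp (Ankle2) and 503 bp (ph-p) from a start. The nearest outside lay at 496 bp (in a 5′ UTR, within the spans of both Hers and amn), 496 bp (Rip11) and 483 bp (CG17896).

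Aef1 is a zinc finger transcription factor, named adult enhancer factor 1, that binds repeats of CAACAA and can repress fat body enhancers, among them the adult enhancer of Adh, where its site overlaps one for C/EBP. Sites away from gene starts in flies include enhancers, silencers and insulators, and many lie in long first introns. The X is also the chromosome that the male-specific lethal (MSL) complex covers in males to raise its transcription, starting from the roX genes and from GA-rich recognition elements.

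The DNA at the summits of the strongest X regions is printed first, because these regions had the highest ranked peaks in all 3 replicates and their letters can be compared with the word known for Aef1. Each line gives a summit and the 50 bp to either side, from the plus strand of dm6 as RefSeq has it, in lower case. Capitals mark CAACAA or its reverse complement TTGTTG. The region at place 10 lay in a 3′ UTR (APC7) and is not printed.

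ph-p intron, chrX:2137308-2137408: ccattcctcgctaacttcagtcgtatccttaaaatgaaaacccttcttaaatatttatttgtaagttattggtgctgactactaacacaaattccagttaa
Vinr, 3′ of CG4004, chrX:12751361-12751461: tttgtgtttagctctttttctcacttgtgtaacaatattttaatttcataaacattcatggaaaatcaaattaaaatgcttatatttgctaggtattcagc
CG32772 intron, chrX:4910318-4910418: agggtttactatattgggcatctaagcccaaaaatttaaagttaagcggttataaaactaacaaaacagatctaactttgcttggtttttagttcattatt
CG3726 intron, chrX:5918862-5918962: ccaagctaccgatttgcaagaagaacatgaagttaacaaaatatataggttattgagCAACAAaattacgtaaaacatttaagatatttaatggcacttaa
NFAT intron, chrX:13640458-13640558: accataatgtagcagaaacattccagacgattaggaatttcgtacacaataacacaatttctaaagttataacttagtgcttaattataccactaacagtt
norpA intron, chrX:4324946-4325046: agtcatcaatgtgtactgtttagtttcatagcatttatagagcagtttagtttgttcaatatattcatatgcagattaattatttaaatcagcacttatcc
Tlk intron, chrX:3742180-3742280: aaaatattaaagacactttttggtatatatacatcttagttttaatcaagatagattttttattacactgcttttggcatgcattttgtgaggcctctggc
CR44619, 3′ of CG4004, chrX:12752320-12752420: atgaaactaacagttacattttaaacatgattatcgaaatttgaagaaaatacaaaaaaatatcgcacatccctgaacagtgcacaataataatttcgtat
Raf intron, chrX:2297662-2297762: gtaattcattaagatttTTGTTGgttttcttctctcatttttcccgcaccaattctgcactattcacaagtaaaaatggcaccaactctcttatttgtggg

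Of these 9 windows, only those at CG3726 and Raf held the word, and each held 1 copy. The 9 windows were AT-rich, with GC contents from 25.7% to 35.6%. The X windows with the longest CAA tract within 50 bp of the summit are shown for contrast. A pair of 4-copy tracts lay in exons (Rab35, a Rab GTPase gene, and Bx with HisRS) and are not printed, and the 3 windows printed are the best placed of 12 whose longest tract had 3 copies.

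CG3149 upstream, chrX:5696518-5696618: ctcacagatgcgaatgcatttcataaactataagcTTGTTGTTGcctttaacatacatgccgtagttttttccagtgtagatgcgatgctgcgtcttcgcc
mys intron, chrX:8063529-8063629: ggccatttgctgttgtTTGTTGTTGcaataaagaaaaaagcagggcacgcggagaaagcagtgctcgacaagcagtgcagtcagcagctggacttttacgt
mamo intron, chrX:13890527-13890627: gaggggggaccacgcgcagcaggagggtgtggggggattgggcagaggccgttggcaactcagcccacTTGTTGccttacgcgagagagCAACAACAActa

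The regions holding the printed tracts took place 22 (CG3149), 83 (mys, an integrin beta subunit) and 149 (mamo, a zinc finger factor) among the 337 by mean rank, and the exonic ones places 166 (Rab35) and 235 (Bx, HisRS). The mamo region was also the farthest from any start, at 42766 bp. Its ranks were 1359, 2172 and 816 in replicates 1, 2 and 3, a wide spread.

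The rule asks for peaks in 2 or more replicates, so every region repeated at least once. Peaks from all 3 replicates supported 232 of 337 regions (68.8%), against 66.9% of the autosomal regions. Of the remaining 105, 48 lacked a peak in replicate 3, 32 in replicate 2 and 25 in replicate 1. Nearly all of those overlapped a peak below the threshold in the missing replicate. The ranked list of the missing replicate, deposited by the authors without the threshold on the irreproducible discovery rate (IDR), held an overlapping peak for 47 of the 48, 30 of the 32 and 24 of the 25. Its median IDR there was 0.0592 in replicate 3, 0.0552 in replicate 2 and 0.034 in replicate 1. Values above the 0.01 at which the thresholded lists end follow from the choice of regions without a thresholded peak there. The overlap of the ranked lists with other sequence was not counted, so these overlaps do not measure reproducibility. The median region was 328 bp wide (range 103 to 728 bp), and the summits of its replicates lay a median of 25 bp apart. The conservative list deposited for the whole series overlapped 326 of the 337.

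The regions spanned the whole range of peak strength. Peaks are ranked here by the authors' signal, whose scale is not stated, and rank 1 is the highest in a replicate. X regions had peaks among the 3495, 3126 and 2942 of replicates 1, 2 and 3 in 312, 305 and 289 cases. Their signals ran from 33.3 to 887 in replicate 1 (median 83.4), from 27.5 to 801 in replicate 2 (median 72.7) and from 30.7 to 690 in replicate 3 (median 68.2). The median X region stood at 41.6%, 43% and 47% of the way down the 3 lists, and the median autosomal region at 43.4%, 46.1% and 49.6%. The X regions were thus a little higher placed in each of the 3 lists.

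The strongest X region lay in the first intron of ph-p, which encodes the polyhomeotic subunit of Polycomb repressive complex 1. Its peak ranked 9, 9 and 11 in replicates 1, 2 and 3, with signals of 887, 801 and 690, and it lay 503 bp from the nearest start, just past the limit. The neighbouring ph-d gene is a near-identical copy of ph-p, so the assignment of reads between them is uncertain where their sequences match. A region 5′ of ph-d took place 42, with ranks of 511, 306 and 511. The ph-p region ranked above it in each replicate.

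The second and eighth places went to an intergenic stretch between CG4004 and Paics, a gene of purine synthesis, where the annotation has the non-coding RNAs lncRNA:Vinr and lncRNA:CR44619. The Vinr summit ranked 20, 16 and 23 in replicates 1, 2 and 3 and lay 456 bp from a non-coding start, which the rule does not consider. The CR44619 summit ranked 53, 56 and 59. Neither summit lay within 5 kb of a protein-coding start, since they stood 5094 and 6053 bp from that of CG4004.

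Introns held 7 of the 10 strongest regions, ph-p among them. CG32772 ranked 19, 20 and 25, and CG3726 ranked 25, 26 and 28, both in first introns of genes known only by number. NFAT, a Rel-domain transcription factor, ranked 33, 50 and 32. The phospholipase C gene norpA, which acts in phototransduction, ranked 48, 31 and 39. Both were first-intron sites. Tlk, a kinase of chromatin assembly, ranked 47, 59 and 42 with its site in a first intron of 60007 bp. Raf, the kinase between Ras and MEK, ranked 67, 68 and 71 with its site in the second intron. The exception was the 3′ UTR of APC7, a subunit of the anaphase-promoting complex, which ranked 65, 76 and 68 and lay 576 bp from the start of its neighbour pigs. Among these 10 regions the ranks of the 3 replicates lay closest together at ph-p and farthest apart at NFAT.

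**Figure D1:**
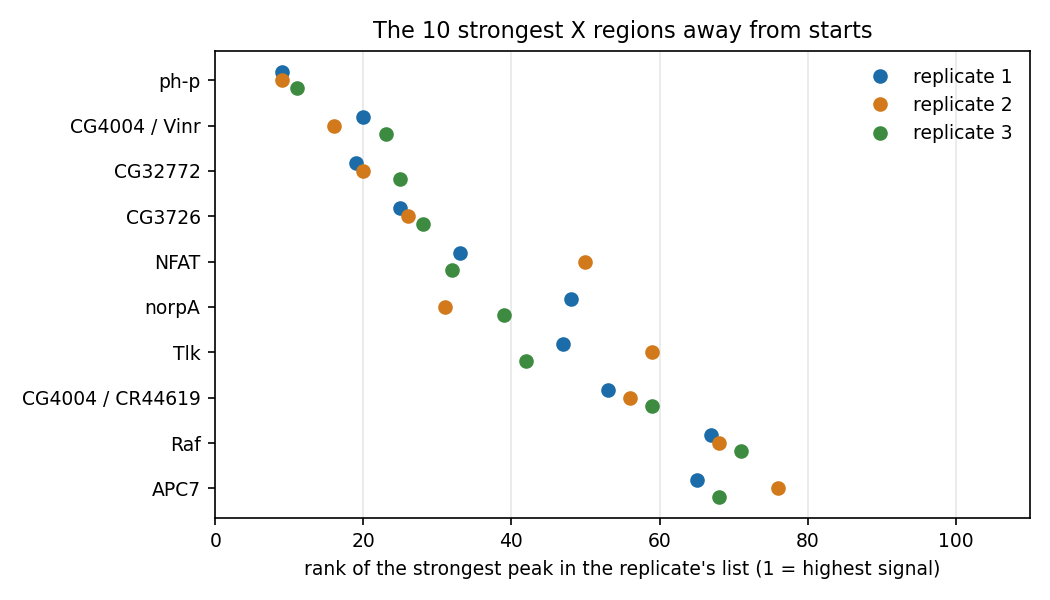
Rank of the strongest peak in each replicate's list (horizontal axis, 1 is the highest signal) for the 10 X regions with the lowest mean rank fraction, 1 point per replicate. The points run from rank 9 at ph-p to rank 76 at APC7, and the replicates of a region lie close together.

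Several genes carried many regions. Of 2196 protein-coding X genes, 215 (9.79%) owned at least 1 region, either within their span or as the nearest start. CG1677 held 11 regions, with 7 in all 3 replicates. Its best took place 49, in an intron of CG1677 and inside Dok, a gene nested in it, with ranks of 449, 603 and 500. Raf held 10 over 48.4 kb, CHES-1-like (a forkhead transcription factor) 8 over 27 kb, kirre (an immunoglobulin-family adhesion receptor of muscle founder cells) 8 over 394 kb, and Tlk 7 over 69.8 kb. Hr4, a nuclear receptor of the ecdysone response, also held 7. CG1677, Raf, CHES-1-like, kirre and Tlk together accounted for 44 of the 337 regions.

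Many neighbours lay close to each other. A total of 142 regions fell in 53 groups whose neighbouring summits were at most 5 kb apart, and the other 195 stood alone. On X, 26.5% of gaps between neighbours were 5 kb or less, against 14.5% to 21.4% on 2L, 2R, 3L and 3R. Counted over single peaks, the X share was 27.1%, 24.9% and 29.7% in replicates 1, 2 and 3 (27.2 ± 2.38, SD, n = 3). No autosomal share was counted over single peaks, so the arms are compared by merged regions only. X also held more regions per Mb away from starts than the autosomes (16.1 against 10.8), and the part of this in the gaps was not tested.

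Groups of 4 or more regions numbered 8, with 46 regions in them. The densest was the stretch between CG4004 and Paics, where 7 regions lay over 5051 bp and each was found in all 3 replicates. Besides places 2 and 8 it held place 14, with ranks of 123, 98 and 108 and a summit 6084 bp from the Paics start, and the other 4 lay between places 175 and 279. Raf held a group of 9 regions over 10301 bp, 7 of them in all 3 replicates. They included places 9 and 16, the latter with ranks of 118, 136 and 143, while the weakest took place 268. In CHES-1-like, 6 regions lay over 8609 bp. That group held places 12, 17 and 25 and also the weakest of the 337, with ranks of 3431, 2833 and 2876. Strong and weak regions thus stood side by side in the same gene. CG14434 held 6 over 8569 bp, CG1677 5 over 6918 bp, Tlk 5 over 8458 bp, Hr4 4 over 5392 bp and CG42258 4 over 4182 bp. The CG1677 group held places 171 and 177, whose nearest start was that of brk.

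**Figure D2:**
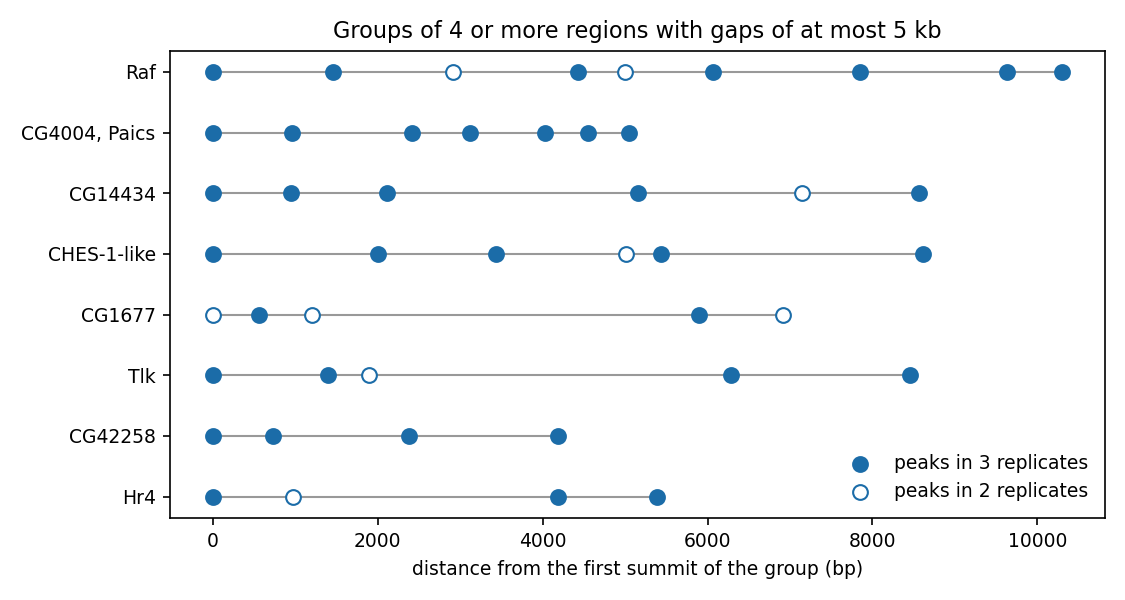
Position of each summit, in bp from the first summit of its group, for the 8 groups of 4 or more X regions with gaps of at most 5 kb. Filled points had peaks in 3 replicates and open points in 2, and the 7 points between CG4004 and Paics, the group with lncRNA:Vinr, are all filled.

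Genes of 6 lists of textbook X-linked regulators were looked up, with the share of all X genes that own a region (9.79%) as the background. The lists were written with earlier results of these data known, so their shares are not independent of the regions. Gene length was not taken into account, and the shares below are counts with no test. In the chromatin and transcription list, 8 of 17 genes (47.1%) owned a region, led by ph-p, Tlk and ph-d. In the list of adhesion, axon and synapse genes it was 7 of 14 (50%), led by kirre, mys and the junction scaffold dlg1. The kirre site at place 30, shared with the nested gene CG32795, ranked 371, 330 and 295. The mys region ranked 929, 1074 and 640, and the best of dlg1 ranked 1353, 1168 and 1323.

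Among signalling genes, 6 of 13 (46.2%) owned a region. Raf led the list. The Notch receptor gene N followed, with a fifth-intron region ranked 638, 446 and 596, and then sog, a secreted BMP antagonist, with a first-intron region ranked 718, 547 and 1002. Of 3 matched ecdysone genes, Hr4 and br owned regions. The best Hr4 region ranked 202, 147 and 126 and lay 21985 bp from a start, and the br region, whose summit also lies inside the gene Mur2B, ranked 702, 829 and 518. The fourth name of that list, phm, was not matched.

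Patterning and neural transcription factors owned a region in 6 of 25 cases (24%), led by CHES-1-like, bi and CrebB. The best CHES-1-like region ranked 79, 122 and 105. The T-box gene bi had its best region, 19154 bp from a start, at ranks 1158, 1019 and 630. CrebB, a cAMP-response transcription factor, had its best at 1282, 865 and 1049. The proneural genes ac, sc, l(1)sc and ase and the segmentation gene run owned none.

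Of 9 protein-coding genes of sex determination and dosage compensation, 3 (33.3%) owned a region. The best ranked was at upd1, a JAK/STAT ligand and X-counting gene, ranked 662, 976 and 746 at 14044 bp from the start. The germline transcription factor ovo followed, ranked 838, 740 and 1424. The switch gene Sxl had a first-intron region with peaks in replicates 1 and 3 only, ranked 1640 and 1990. Ownership was defined for protein-coding genes, so the non-coding roX1 and roX2 genes are given by distance. The nearest regions lay 18.4 kb from roX1, in ec, and 18.6 kb from roX2, near PGRP-SA.

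The X regions lay in introns more often than the pooled autosomal ones, and between genes less often. An intron of a protein-coding gene held the summit in 260 of 337 X regions (77.2%, exact 95% interval 72.3% to 81.5%) and in 699 of 1055 autosomal regions (66.3%). The difference was 10.9 percentage points (adjusted p = 3.74e-04, Fisher's exact test, two-sided, Benjamini-Hochberg over 5 classes). Intergenic summits numbered 54 (16%, interval 12.3% to 20.4%) against 327 (31%), a gap of -15 points (by Fisher's exact test, adjusted p = 1.8e-07). Intergenic sequence itself made up 30.1% of X and 34.7% of autosomal sequence away from starts. Class shares add up to the whole, so the intron and intergenic differences are not independent. In all, 3 of the 5 classes differed (60%). The autosomal arms were not alike. Intronic summits numbered 157 of 257 on 2L, 157 of 235 on 2R, 171 of 277 on 3L and 214 of 284 on 3R. Intergenic ones numbered 94, 71, 98 and 62. The intron share of 3R was thus close to that of X, and single arms were not tested. With 1 region per gene (204 on X) the intron difference was 6.47 points and no longer passed (Fisher's exact test, adjusted p = 0.155), whereas the intergenic difference still passed.

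Exons held few regions on any chromosome, but 5′ UTRs made up little of the sequence away from starts (1.11% on X, 0.848% on the autosomes). Per Mb of 5′ UTR there were 42.9 regions on X, above the 26.8 of X introns, and 13.3 on the autosomes. Per Mb of 3′ UTR there were 6.35 and 2.23. These densities rest on few regions and are given with no test. Summits in 5′ UTRs numbered 10 on X (2.97%) and 11 on the autosomes (1.04%), a gap of 1.92 points (by Fisher's exact test, adjusted p = 0.031). By the same exact test this did not pass without replicate 2 (1.54 points, adjusted p = 0.103), with peaks in 3 of 3 replicates (adjusted p = 0.0665) or with 1 region per gene (1.56 points, adjusted p = 0.169). Summits in 3′ UTRs numbered 10 (2.97%) and 12 (1.14%), which did not pass (1.83 points, Fisher's exact test, adjusted p = 0.0503). That value lay close to the threshold, and by the same exact test it passed without replicate 1 (adjusted p = 0.0161) and without replicate 3 (adjusted p = 0.0262). Coding summits numbered 3 and 6 (Fisher's exact test, adjusted p = 0.459).

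Per Mb of sequence, X introns held more peaks than autosomal introns in each replicate. Introns made up 46.2% of X sequence away from starts and 44% of autosomal sequence, so the amount of intron was similar. X introns held 31.7, 26.7 and 25.7 peaks per Mb in replicates 1, 2 and 3 (28 ± 3.2, SD, n = 3), and autosomal introns 19.6, 18.1 and 15.4 (17.7 ± 2.12). The ratio within a replicate was 1.62, 1.48 and 1.67 (1.59 ± 0.1). The X value exceeded that of each autosomal arm in every replicate. Intergenic sequence did not share this: the ratio there was 0.803, 0.971 and 0.833 (0.869 ± 0.0898). The excess was not limited to introns. In 5′ UTRs the ratio was 3.01, 2.96 and 2.73 (2.9 ± 0.146), and in 3′ UTRs 2.05, 4.78 and 2.48 (3.1 ± 1.47). Each of these UTR classes held only 10 X regions.

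The merged regions gave the same picture. X introns held 26.8 regions per Mb against 15.4 to 18.2 on 2L, 2R, 3L and 3R, while intergenic X sequence held 8.57 against 7.37 to 12.6. Chromosome 4, which is small and largely heterochromatic, held 2 regions away from starts in all. These densities come from the peaks that chose the regions and are given with no test. The X-to-autosome dose in the chromatin is unknown, and its part in them cannot be told apart.

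**Figure D3:**
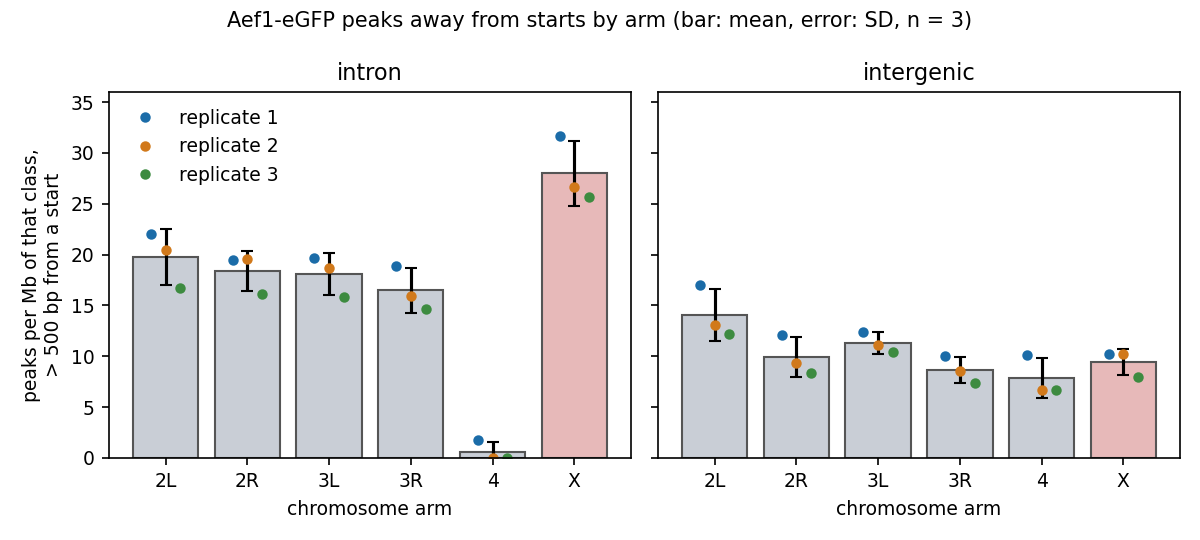
Peaks per Mb of intron (left) and of intergenic sequence (right) more than 500 bp from a start, by chromosome arm. Bars are means and error bars SDs of 3 replicates, and points are single replicates. X introns stand at 28 ± 3.2 peaks per Mb, above each autosomal arm, and X intergenic sequence lies among the autosomal arms.

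First introns carried most of the intronic regions. On X, 164 of 260 intronic summits (63.1%) lay in a first intron, although first introns made up 47.5% of intron sequence away from starts. That corresponds to 35.7 regions per Mb of first intron and 18.9 per Mb of later introns. On the autosomes 70% lay in first introns, at 27.3 and 8.4 regions per Mb. The X thus exceeded the autosomes in both kinds of intron, by more in later introns. The host genes had similar sizes, with a median span of 28.4 kb on X and 28.2 kb on the autosomes, and 153 X genes hosted the 260 summits.

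Distance from gene starts, which the rule limits to more than 500 bp, is given as a description. Summits more than 2 kb from a start made up 186 of 337 on X (55.2%) and 57.8% on the autosomes. The median distance was 2470 bp on X and 2780 bp on the autosomes. Annotated non-coding RNA genes spanned 34 X summits (10.1%) and 59 autosomal ones (5.59%), and 13 of the 54 intergenic X summits were among them. Of the 34, 13 lay in the single gene lncRNA:CR44357, 11 of these in CG1677, and without them the X share was 21 of 324 (6.48%). A non-coding start lay within 500 bp of 16 X summits. No X summit lay in an annotated transposable element, 0 of 337, which allows a share of up to 0.89%. The autosomal share, 4 of 1055 (0.379%), lay under that limit, and 1 X region overlapped such an element outside its summit.

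The word known for Aef1 was not shown to be more frequent at the X summits than beside them. CAACAA, read on both strands, stood within 50 bp of 56 of 337 summits (16.6%, exact interval 12.8% to 21%) and in 17.5% of the windows of the same length centred 500 bp to either side. The ratio was 0.949 (adjusted p = 1, exact McNemar test, two-sided, larger p of both flanks, Benjamini-Hochberg over 22 motifs). Both shares were above the 11.1% of all windows of that length tiled over X away from starts. The flanks were unlike, with CAACAA in 48 windows to the left (14.2%) and 70 to the right (20.8%). The summit share lay between them. Windows 400 and 600 bp to the right held it in 13.6% and 13.9% of cases, and those to the left in 17.8% and 14.5%. The ratio thus depends on the flank windows chosen. The tandem CAACAACAA, which contains that word, stood in 14 summit windows (4.15%) and in 3.12% of flanks (ratio 1.33, exact McNemar test, adjusted p = 1), against 1.24% of tiled windows. In single replicates, 15.2%, 14% and 15.9% of X peaks away from starts held CAACAA at the summit (15 ± 0.952, SD, n = 3), and 17.2%, 17.1% and 15.9% of their flanks (16.7 ± 0.733).

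The permuted controls AACCAA and CAAACA stood in 8.31% and 9.5% of summit windows, near their shares of tiled windows (7.87% and 10%). In the flanks they stood in 7.86% and 12.9%, so CAAACA was above its tiled share there. By strength of the region, CAACAA stood in 11.5% of the 113 strongest regions, 20.5% of the next 112 and 17.9% of the 112 weakest. Summits in 3 replicates held it in 15.5% of cases and summits in 2 replicates in 19%.

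Tracts of the word were far more numerous than these summits. X sequence away from starts held 3014 tracts of 3 or more CAA copies in a row (144 per Mb), and 19 of them (0.63%, exact interval 0.38% to 0.983%) lay within 50 bp of an X summit. Windows of 50 bp to either side of the summits covered 0.161% of that sequence. On the autosomes there were 103 tracts per Mb, 0.677% of them lay within 50 bp of a summit, and the windows covered 0.108% of the sequence. The share in X introns was 0.927% and in X intergenic sequence 0.291%. These shares depend on the peaks and are descriptions.

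A pair of other motifs differed at the summits. Of the 22 motifs, 2 (9.09%) differed between X summits and both flanks. TATAAA, the TATA box word, stood in 70 summit windows (20.8%) and 10.1% of flanks, a ratio of 2.06 (exact McNemar test, adjusted p = 0.017), and in 10.9% of tiled windows. By replicate it stood in 19.4%, 21.4% and 17.1% of summit windows (19.3 ± 2.15, n = 3) and 11.9%, 10.6% and 11.4% of flanks (11.3 ± 0.654). Without replicate 2 the ratio was 1.79 and the call was lost (exact McNemar test, adjusted p = 0.141).

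The other motif was scarcer at summits. CACACACA, a CA repeat, stood in 4 summit windows (1.19%) and 5.79% of flanks (ratio 0.205, exact McNemar test, adjusted p = 0.017), with 2.97% of tiled windows. That call was lost without replicate 1 (ratio 0.207, exact McNemar test, adjusted p = 0.309) and with flanks at 1000 bp (ratio 0.276, adjusted p = 0.422). The core letters of the MSL recognition element, GAGAGAGA, stood in 3 summit windows (0.89%) and 2.52% of flanks (exact McNemar test, adjusted p = 1), a share below that of the flanks that did not pass the test. The letters of the GAGA factor, GAGAGAG, stood in 8 (2.37%), and those of CTCF, AGNNGGCGC, in 7 (2.08%, exact McNemar test, adjusted p = 1).

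AT-rich words led an unrestricted search. Of 2080 words of 6 letters, each counted with its reverse complement, 2 (0.0962%) differed from both flanks. TTAAAA stood in 104 summit windows (30.9%) and 16.3% of flanks (ratio 1.89), and ATTTTA, which shares the run TAAAA with it on the other strand, in 97 (28.8%) and 13.9% (ratio 2.06). The adjusted p was 0.0337 for both (exact McNemar test over 2080 words), and 103 words had an unadjusted p under 0.05. These calls were close to the threshold. Without replicate 1, 2 or 3 the adjusted p was 0.453, 0.665 and 0.152 for TTAAAA and the same for ATTTTA, with ratios from 1.67 to 2.13.

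GC content moved with these words. It averaged 34.2% ± 9.32 (SD over 337 windows) at X summits, 40.3% and 40.6% at the left and right flanks, and 42.3% over tiled windows. The drop was narrow, since windows 200 bp to either side of the summit held 44.4% and 43.8%. The GC difference between summits and flanks was -5.72, -5.86 and -4.67 points in replicates 1, 2 and 3 (-5.42 ± 0.652, n = 3). The part of base composition in the counts of these words and of the TATA word and the CA repeat was not tested.

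**Figure D4:**
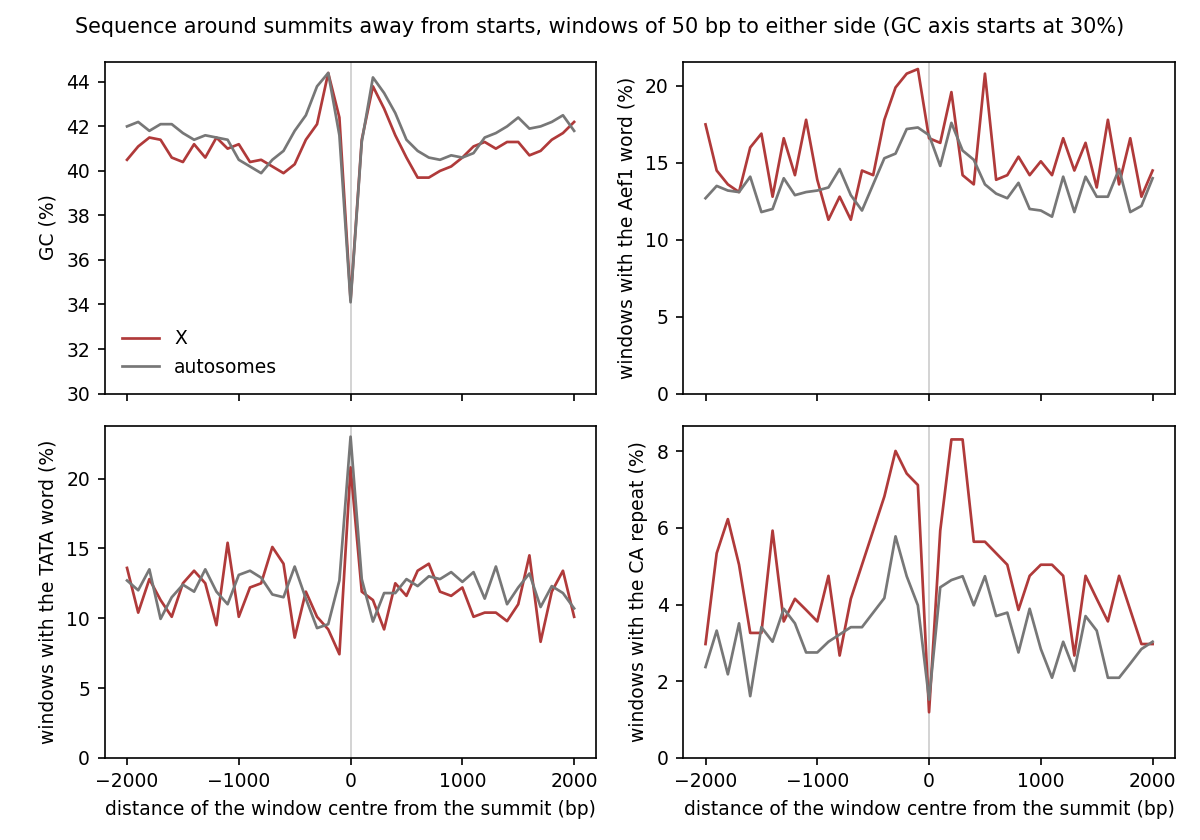
GC content and the share of windows of 50 bp to either side that hold the Aef1 word CAACAA, the TATA word or the CA repeat, by distance of the window centre from the summit, for 337 X regions and 1055 autosomal regions. At the summit GC falls to 34.2% on X and the TATA word rises to 20.8%, while the Aef1 word stands at 16.6%, against 21.1% of windows 100 bp to the left and 16.3% of windows 100 bp to the right.

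No motif or word passed the test between X and autosomal summits. Of the 22 motifs, 0 (0%) differed between the 337 X and 1055 autosomal windows after adjustment (Fisher's exact test, two-sided), and 2 had an unadjusted p under 0.05, CAGCAG (0.0487) and GCCAT (0.0413). CAACAA stood in 16.6% and 16.8% (ratio 0.99, Fisher's exact test, adjusted p = 1), and CAACAACAA in 4.15% and 4.83% (ratio 0.859, adjusted p = 0.915). Of the 2080 words, 0 (0%) differed, with 77 at an unadjusted p under 0.05. Mean GC was 34.2% and 34.1%.

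The autosomal regions, tested against their own flanks, gave 4 of 22 motifs (18.2%), namely the TATA word, the CA repeat, the AAT repeat and the CTCF core. CAACAA did not pass there (ratio 1.24, exact McNemar test, adjusted p = 0.108), nor did the tandem CAACAACAA (ratio 1.96, adjusted p = 0.0514), which lay close to the threshold. In the flanks, CAACAA stood in at least 1 of the windows of 31.8% of X and 25.2% of autosomal regions (p = 0.0198, adjusted p = 0.0792 over 4 motifs, Fisher's exact test, also added after the data were seen). The difference between the X and autosomal contrasts for CAACAA was tested after the data were seen. It did not pass (p = 0.808, larger p of both flanks, Fisher's exact test, adjusted p = 1 over 4 motifs). The flanks were unlike. With the left flank, 49 X regions held the word only at the summit and 41 only in the flank (158 and 124 autosomal). With the right flank these were 43 and 57 on X, and 156 and 122 on the autosomes. The X contrast thus changed direction between flanks, and no p of the right flank alone is given. The numbers of regions differ between the contrasts, and the AAT repeat AATAAT (ratio 1.41 on X, exact McNemar test, adjusted p = 0.299, and 1.74 on the autosomes) and the CTCF core (1.75 and 4.13) are not shown to differ between them.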

How the data were processed

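ChIP-seq peak lists of 3 biological replicates of Aef1-eGFP embryos were used. The deposited thresholded lists give a score, 125 times the negative log2 of the IDR and capped at 1000 (lowest 830, an IDR of 0.01), and a signal from the authors' caller on an unstated scale, used only for ranks. The deposited ranked lists give −log10 of the IDR. Coordinates are dm6, per the labels. No source used here names the aligner or the caller. Alignments were not analysed, so the depth is unknown and intervals (exact Clopper-Pearson, 95%) cover counting error only. A count of 0 was given the limit that 3 counts allow.

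Gene models were Ensembl's BDGP6.54 (13945 protein-coding genes, 19252 distinct start positions) and sequence was RefSeq's dm6. Peaks off the main arms (9 to 22 per replicate) were left out. Summits were classed as 5′ UTR, 3′ UTR, coding, intron or intergenic, in that order. Windows of 50 bp to either side of the summit were compared with windows 500 bp to either side by exact McNemar tests and with autosomal regions by Fisher's exact tests, with Benjamini-Hochberg adjustment within each family and a threshold of 0.05. Regions of 1 gene were counted singly. The labels number the replicates as biological, and whether they came from separate collections is not given.

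The 22 motifs, read on both strands, were CAACAA (Aef1) and its tandem CAACAACAA, which contains it, the permuted control AACCAA, the permuted control CAAACA, the GAGA factor letters GAGAGAG and the MSL element core GAGAGAGA, which contains them, the CA repeat CACACACA, the homopolymer AAAAAAAA, the alternating repeat ATATATAT, the triplet repeat CAGCAG, the triplet repeat AATAAT, TATCGATA (DRE), the promoter word TATAAA, AGNNGGCGC (CTCF core), TGCATACTT (Su(Hw) core), CAGGTAG (Zelda), the E-box CACGTG, the E-box CAGCTG, the word TGATAAG of GATA factors, TTNCGNAA (C/EBP), GGTCACACT (Motif 1) and GCCAT (Pleiohomeotic core). A match says only that the letters are there.

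Named were the 10 regions best placed by mean rank, the 5 genes holding most regions, up to 3 genes per list with the best ranked regions, the 5 longest CAA tracts, with ties given to the better placed region, and the regions nearest to 500 bp from a start. Other genes were named after their values were seen. A region that this rule names is not reported here. Members, lists and tests were chosen with earlier results of these data known. The sequence tests were checked on simulated windows with 2 planted words, which they recovered. Simulated summits, flanks and autosomal windows had the same base composition, unlike the real summits and flanks. Each word was planted at a single frequency. The check thus does not cover calls that follow from base composition in the flank tests, or weaker enrichments. Computation used SciPy 1.17.1 and pandas 2.3.3 with numpy 2.4.6 under Python 3.11.15, and figures matplotlib 3.10.9.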

Additional observations from a re-analysis of the deposited data

How the results depend on the processing

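The tested X results, the number of regions, the intron and intergenic densities, GC and spacing were recomputed under those of 15 alternatives that applied. Gene lists, tracts, first introns, UTR densities, non-coding genes and autosomal regions against their own flanks were not. The number of regions was 204 with 1 per gene. The intron difference of 10.9 points kept its direction in each and lost its call only with 1 region per gene (6.47 points). The count of called motifs at summits, 2, was 0 with peaks in 3 of 3 replicates, with windows reaching 25 or 100 bp from the summit and with the summit of the best ranked peak, 1 beyond 1000 bp from a start, 3 with flanks at 1000 bp, and 1 to 2 when 1 replicate was left out. The count of called words, 2, was 0 with 3 of 3 replicates, with peaks at the score cap, with windows reaching 25 bp and with the best ranked summit, 1 beyond 1000 bp, 5 beyond 250 bp and with flanks at 1000 bp, 10 with windows reaching 100 bp, and 0 to 1 when 1 replicate was left out. The cause was not tested. CAACAA and its tandem passed under none. The CAACAA ratio to flanks turned to 1.14 with flanks at 1000 bp. Its ratio to autosomal regions turned to 1.04 with 50% reciprocal overlap and with 1 region per gene, and to 1.02 with windows reaching 100 bp, fell to 0.626 with windows reaching 25 bp, and ran from 0.909 to 1 without 1 replicate. The tandem's ratio to autosomal regions turned to 1.08 with 3 of 3 replicates, 1.01 beyond 1000 bp, 1.03 at the score cap and 1.05 with 1 region per gene, fell to 0.626 with windows reaching 25 bp, and ran from 0.879 to 1.09 without 1 replicate. The TATA word, the CA repeat, the AT-rich words and the other 4 classes kept their direction, and among them 32 values lost and 7 gained a call. No paired analysis was possible because the replicates form 1 group. Depth is unknown, so regions absent from the lists cannot be called unbound.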
